A study of Mus musculus with 13 samples.

Results

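Oxidative phosphorylation genes were followed in sorted mouse splenic CD4 T cells across 3 populations. The genes were chosen by symbol: those beginning with Nduf followed by a, b, c, s or v, the 4 succinate dehydrogenase subunits Sdha to Sdhd, and those beginning with Uqcr, with Cox followed by a digit from 4 to 8, with Atp5 or with mt-. The rule found 113 of 18649 genes and used no measured value. They comprised 74 nuclear subunits of the 5 complexes and 27 genes of the mitochondrial genome, of which 13 are messenger RNAs, 2 ribosomal RNAs and 12 transfer RNAs. The other 12 included the assembly factors Ndufaf1 to Ndufaf4 and 5 copies, isoforms or supercomplex factors (Atp5l2, Atp5l-ps1, Cox6b2, Cox7a1 and Cox7a2l). The rest were 3 further genes that share a prefix (Atp5s, Atp5sl and Cox4nb), of which Atp5sl is named Dmac2 in RefSeq. All cells carried a GFP reporter of Foxp3, the lineage factor of regulatory T cells. PD1hi cells (3 libraries) had high surface PD-1, an inhibitory receptor, and no reporter signal, Treg cells (5 libraries) were PD-1 negative and reporter positive, and conventional cells (Tconv, 5 libraries) were negative for both. The titles place the libraries in experiments 3, 5 and 6, each with all 3 populations. They name some libraries as a replicate without saying whether it came from another animal, so p-values reflect only how far these samples spread, and that spread may be technical. Age, strain and treatment are not in the labels used here.

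Oxidative phosphorylation passes electrons from NADH and succinate through complexes I and II to coenzyme Q, on through complex III and cytochrome c, and through complex IV to oxygen. The proton gradient built by complexes I, III and IV drives ATP synthesis by complex V. Most subunits are encoded in the nucleus and imported, while a small core of complexes I, III, IV and V is encoded by mitochondrial DNA; complex II is encoded by the nucleus alone. Resting and regulatory T cells are known to rely largely on this pathway, and activated effector cells add aerobic glycolysis.

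Promoters of member genes were read for the cores of 4 factors known to drive respiratory genes, each 8 letters long and searched on both strands in the 250 bases before the annotated start (RefSeq, GRCm38.p6). The 4 sequences shown are those of Cox7a2l and Uqcr10, the members past the test in both comparisons of PD1hi, and of Ndufa6 and Ndufa10, the complex I subunits below Tconv in PD1hi. Capitals mark a match. They lie on the minus strand at chr17:83514334-83514583, chr11:4704345-4704594, chr15:82354292-82354541 and chr1:92473759-92474008, in the order printed, and are written 5′ to 3′ in the direction of the gene.
Cox7a2l: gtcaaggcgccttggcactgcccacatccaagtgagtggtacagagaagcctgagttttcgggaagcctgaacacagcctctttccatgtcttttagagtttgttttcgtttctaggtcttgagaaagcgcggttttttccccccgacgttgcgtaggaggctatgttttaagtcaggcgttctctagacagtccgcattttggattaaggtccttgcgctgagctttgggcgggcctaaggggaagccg
Uqcr10: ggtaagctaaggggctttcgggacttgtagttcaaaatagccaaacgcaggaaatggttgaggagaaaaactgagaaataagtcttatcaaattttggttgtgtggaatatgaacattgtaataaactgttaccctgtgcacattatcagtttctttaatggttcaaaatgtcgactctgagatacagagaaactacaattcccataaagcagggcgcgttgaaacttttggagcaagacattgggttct
Ndufa6: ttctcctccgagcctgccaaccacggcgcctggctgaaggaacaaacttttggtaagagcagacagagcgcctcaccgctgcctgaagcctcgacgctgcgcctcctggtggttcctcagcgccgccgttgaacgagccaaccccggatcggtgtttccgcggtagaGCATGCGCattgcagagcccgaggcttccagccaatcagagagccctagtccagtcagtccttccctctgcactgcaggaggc
Ndufa10: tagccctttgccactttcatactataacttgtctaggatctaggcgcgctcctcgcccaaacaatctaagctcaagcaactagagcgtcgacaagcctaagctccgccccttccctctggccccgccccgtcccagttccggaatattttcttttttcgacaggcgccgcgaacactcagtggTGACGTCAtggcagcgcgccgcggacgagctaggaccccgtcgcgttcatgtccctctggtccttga
Ndufa6 held the NRF1 core GCGCATGC on the reverse strand, its first base 83 bases before the start, and Ndufa10 held the CREB core TGACGTCA, 67 bases before it. None of the 4 cores stood in the Cox7a2l, Uqcr10 or Cox8a window, and Ndufaf4 held overlapping NRF1 matches on both strands, at 113 and 111 bases. No window was available for Uqcrb, which also passed the test against Tconv. Of 74 nuclear subunits 63 were matched to the promoter table. The NRF1 core stood in 8 of the 63 (12.7%) and in 2.56% of the windows of 27025 genes. The CREB core stood in 4 (6.35%, against 1.77%), the GABP/ETS core CCGGAAGT in 3 (4.76%, against 3.23%) and the YY1 core AAGATGGC in 1 (1.59%, against 1.83%). Any of the 4 was present in 15 subunits (23.8%) and in 8.80% of all genes.

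Libraries held 15971126 to 24216463 reads in genes. Levels are scaled counts, that is read counts divided by a size factor of the library, and a population is summarised as mean ± SD over its 3 experiments (n = 3), after averaging libraries that share population and experiment. Library values are listed in the order of experiments 3, 5 and 6; Treg had 2 libraries in experiments 3 and 6, and Tconv had 2 in experiments 5 and 6. Differences are on the log2(scaled count + 1) scale with their standard error from limma, and a gene passed the test at a Benjamini-Hochberg adjusted p under 0.05 over all 14177 genes tested. The sort showed in the libraries: Pdcd1, which encodes PD-1, ran from 33610.1 to 39713 scaled counts in PD1hi, from 1715 to 2266 in Treg and from 901 to 1374 in Tconv, and Foxp3 from 67.7 to 129, from 12904 to 18885 and from 232 to 332. The second Treg library of experiment 3 stood apart from its group in mitochondrial transcripts, as described below. The PD1hi library of experiment 6 had the highest messenger sum of its group, but that of experiment 5 lay farther from the rest. The second Treg library of experiment 3 and the PD1hi library of experiment 6 are called below the 2 libraries set aside. The pair was chosen after the data were seen. Results that rest on these libraries are given with and without them. Summed levels of 9 B cell markers were 1693 to 2313 in PD1hi, 824 to 1278 in Treg and 215 to 432 in Tconv, and 11 genes of proliferating cells summed to 12362 to 16649, 9772 to 13050 and 6902 to 7846. Of 5 B cell markers tested 2 rose in PD1hi against Tconv, 1 rose and 1 fell against Treg, and 1 rose in Treg against Tconv. Of 11 proliferation genes 9, 3 and 8 rose in these comparisons. Of 4 plasma cell markers 2 rose, 1 fell and 3 rose in the same order. Of 5 CD8 T and NK markers 2 fell, 1 rose and 1 fell, and 3 fell. Of 8 myeloid markers 1 rose and 1 fell in each PD1hi comparison. Of all genes 26.1%, 16.5% and 14.4% passed in the 3 comparisons. Plasma cell markers summed to 3909 to 7334 in PD1hi, 6511 to 9611 in Treg and 2231 to 3249 in Tconv, CD8 T and NK cell markers to 509.9 to 656, 364 to 603 and 1549.6 to 1725, myeloid and dendritic markers to 563 to 938, 367 to 1279 and 412 to 1350.2, and erythroid and platelet markers to 64.6 to 89.1, 60.9 to 103 and 28.2 to 76.7. In these 6 lists no marker was at 0 in any group. Their part in the results below was not tested, and in bulk samples fewer cells of a type and less RNA per cell cannot be told apart.

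The first comparison asks how PD-1-high cells without Foxp3 differ from conventional cells. Few oxidative phosphorylation genes differed. Of 113 members, 100 passed the filter on low values, and 7 of these passed the test in PD1hi against Tconv, where 26.1% of all genes did. Higher in PD1hi were Cox8a, Uqcrb and Uqcr10, so 3 of 100 members against 14.2% of all genes. Lower were Cox7a2l, Ndufaf4, Ndufa6 and Ndufa10, 4 of 100 against 11.9% of all genes. The 3 values of each population did not overlap for 29 members, 15 higher and 14 lower, against 39.9% of all genes. At an unadjusted p under 0.05 limma counted 15 members, 9 higher and 6 lower, and 36.8% of all genes. The median difference of the 74 nuclear subunits was 0.02, with 38 above 0 and 36 below, and that of all genes tested was -0.00. The members not tested were 11 transfer RNAs, Cox6b2 and Cox7a1.

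Paired by experiment in a replicate block, the count in PD1hi against Tconv was 5 higher and 5 lower, where 28.0% of all genes passed in place of 26.1%. The block added Cox5b (adjusted p = 0.0481 by limma), Atp5j (adjusted p = 0.0437) and Uqcrfs1 (-0.41, adjusted p = 0.0283). Scaling to equal library totals moved the median of all genes by 0.14, so that 65.4% of all calls were higher in place of 54.4%, and gave 8 members higher and 1 lower. Without the second Treg library of experiment 3 and the PD1hi library of experiment 6, 3 of 99 members were higher and 5 lower, against 2116 and 1868 of 14057 genes; Cox8a and Ndufaf4 no longer passed.

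**Figure D1:**
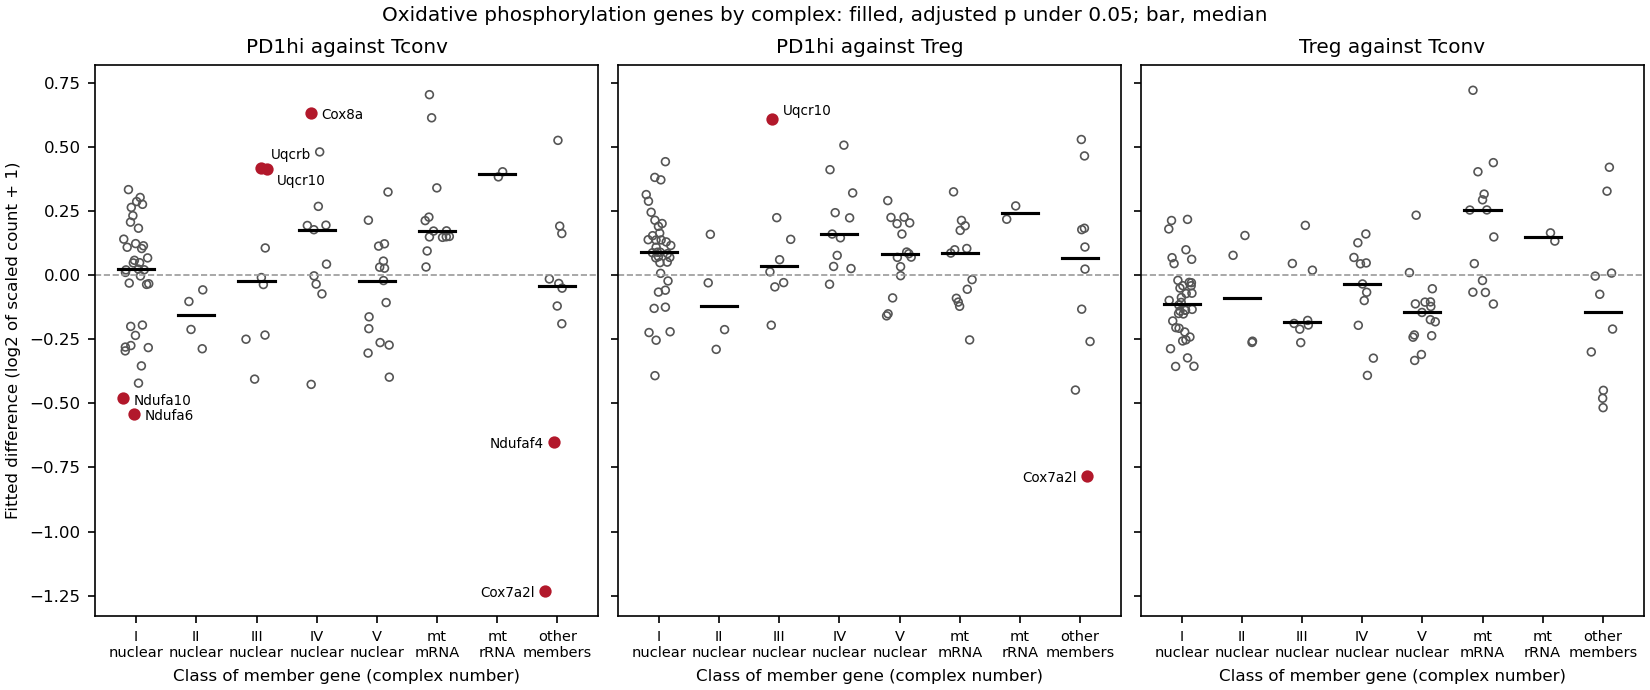
Each point is 1 member gene, placed by class on the x axis and by its fitted difference on the y axis (log2 of scaled count + 1), in 3 panels for the 3 comparisons; filled points passed the test, bars are class medians, and the transfer RNA mt-Tf is not drawn. Most points lie near 0, Cox7a2l lies lowest in both PD1hi panels at -1.23 and -0.78, and no point is filled in Treg against Tconv.

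Cox7a2l showed the widest difference among the members that passed. It encodes a relative of the complex IV subunit Cox7a2 that joins complexes III and IV into supercomplexes. The PD1hi libraries stood at 3475, 2905 and 2471 scaled counts. The Treg libraries stood at 5867 and 5933 in experiment 3, 4430.4 in experiment 5, and 4995 and 4700.4 in experiment 6. The Tconv libraries stood at 7594, then 6307 and 6538, then 6643 and 6582. The populations did not overlap: every PD1hi library lay below every Treg library, and every Treg library below every Tconv library. The means were 2950.4 ± 504, 5059 ± 757 and 6876 ± 629. PD1hi was lower than Tconv by -1.23 ± 0.16 (log2, limma adjusted p = 0.000116) and lower than Treg by -0.78 ± 0.16 (adjusted p = 0.00437). Within experiments 3, 5 and 6 the difference from Tconv was -1.13, -1.14 and -1.42 and that from Treg -0.76, -0.61 and -0.97. Both calls were kept in all 21 alternatives, over which they ran from -1.36 to -1.08 and from -0.91 to -0.66. Treg against Tconv was -0.45 ± 0.16 with an adjusted p of 0.0867, and 0.0268 in the replicate block that paired the experiments.

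Cox7a2 itself, the complex IV subunit that Cox7a2l resembles, stayed at 1261 ± 84.9 scaled counts in PD1hi, 1200.1 ± 154 in Treg and 1223 ± 39.4 in Tconv, and did not pass the test in any comparison. The ratio of Cox7a2l to Cox7a2 was 2.33 ± 0.276 in PD1hi, 4.21 ± 0.108 in Treg and 5.62 ± 0.329 in Tconv, a description of the same values. Inbred mouse strains carry a long or a shortened form of the Cox7a2l protein, and counts per gene do not tell such forms apart. The muscle and heart isoform Cox7a1 was nearly absent, with 24 reads over the PD1hi libraries, 4 over Treg and 12 over Tconv, at means of 8.42, 0.648 and 2.3 scaled counts.

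**Figure D2:**
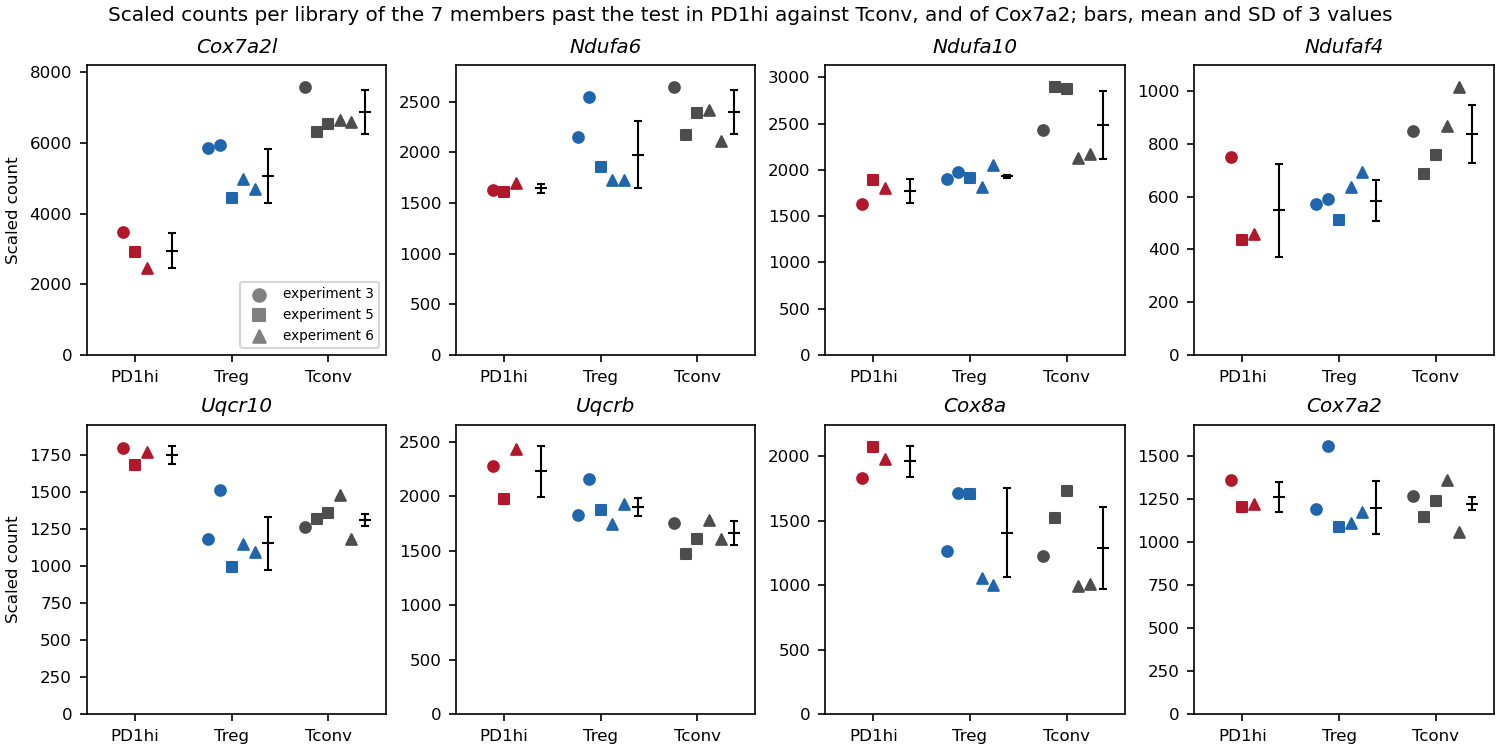
Scaled counts (y axis, from 0) in each of the 13 libraries for the 7 members that passed the test in PD1hi against Tconv and for Cox7a2; marker shapes give the experiment and black bars the mean and SD of 3 values per population. Cox7a2l steps up from PD1hi (2471 to 3475) to Treg (4430.4 to 5933) to Tconv (6307 to 7594), while Cox7a2 does not.

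Complex I, the NADH dehydrogenase, contributed 36 nuclear subunits, of which 2 fell in PD1hi against Tconv and none rose; the median difference was 0.02. The 7 core subunits, which carry the flavin, the iron-sulphur clusters and part of the quinone site, held no call, and the calls were among the 29 accessory subunits. Ndufa6, an accessory subunit of the matrix arm, stood at 1628, 1608 and 1695 scaled counts in PD1hi, and at 2647, 2167 and 2384, and 2418 and 2112 in Tconv. The Treg libraries, at 2149 and 2549, 1853, and 1726 and 1727, overlapped with Tconv. PD1hi lay below all libraries of both other populations, and the difference from Tconv was -0.54 ± 0.14 (log2, limma adjusted p = 0.0150). The call was lost without Tconv of experiment 3 (adjusted p = 0.0780) and with equal library totals.

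Ndufa10, an accessory subunit of the membrane arm, stood at 1633, 1886 and 1799 scaled counts in PD1hi and at 2426, 2899.6 and 2869.9, and 2134 and 2168 in Tconv. The Treg libraries stood at 1904 and 1974, 1911, and 1819 and 2056, so that they overlapped with PD1hi and lay below Tconv. The difference between PD1hi and Tconv was -0.48 ± 0.14 (limma adjusted p = 0.0219); it missed the threshold without PD1hi of experiment 3, Tconv of experiment 3 or Tconv of experiment 5, where adjusted p by limma reached 0.0958, and also with equal library totals, with only the 2 groups compared and without the mean-variance trend. Ndufaf4, a factor needed early in complex I assembly, stood at 749, 433 and 459 scaled counts in PD1hi and at 847, 687 and 758, and 865 and 1016 in Tconv. The PD1hi library of experiment 3 lay within the Tconv range, and the difference was -0.65 ± 0.22 (limma adjusted p = 0.0468). That call held in 1 of 9 fits that left out a population of an experiment, the one without PD1hi of experiment 3; the highest adjusted p, 0.168, came without Tconv of experiment 6. Of the other 3 Ndufaf assembly factors none passed, and Ndufaf2 was nearest to it, at 259 ± 36.1 scaled counts in PD1hi, 178 ± 7.02 in Treg and 179 ± 5.36 in Tconv (0.53 ± 0.19 against Tconv, limma adjusted p = 0.0685). Ndufaf2 was chosen for mention after its values were seen.

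Core subunits of complex I did not pass the test in any comparison. Ndufs1, which holds iron-sulphur clusters, averaged 2525 ± 811 scaled counts in PD1hi, 2837 ± 124 in Treg and 3121 ± 318 in Tconv; the PD1hi libraries were at 3319, 2558 and 1697, and the one of experiment 6 lay below every other library. Ndufv1, which binds NADH, averaged 2084 ± 212, 2275 ± 154 and 2536 ± 333 (-0.28 ± 0.14 in PD1hi against Tconv, limma adjusted p = 0.173).

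Complex II, succinate dehydrogenase, links the pathway to the tricarboxylic acid cycle. Its 4 genes all had fitted differences below 0 in PD1hi against Tconv, with a median of -0.16, and none passed the test. The flavoprotein gene Sdha was among the more abundant nuclear members, at 10477 ± 2628 scaled counts in PD1hi, 10461 ± 695 in Treg and 12566 ± 1712 in Tconv. Its lowest libraries were the second Treg library of experiment 3, at 7104, where the first was at 12419, and PD1hi of experiment 6, at 7492. The iron-sulphur gene Sdhb averaged 3045 ± 322, 3529 ± 396 and 3157 ± 104. The membrane anchors Sdhc and Sdhd averaged 1633 ± 78.3 and 2052 ± 385 in PD1hi, 1463 ± 107 and 2482 ± 213 in Treg, and 1752 ± 46.5 and 2349.8 ± 159 in Tconv. Sdhc in Treg lay below Tconv in all 3 experiments, at -0.26 ± 0.12 (limma adjusted p = 0.212).

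In complex III, the cytochrome bc1 complex, 2 of the 8 nuclear subunits within the symbol rule rose in PD1hi against Tconv and none fell. That is 25%, where 26.1% of all genes passed, 5.56% of complex I nuclear subunits and 9.09% of those of complex IV. Uqcr10, a small subunit, stood at 1802, 1683 and 1773 scaled counts in PD1hi, at 1182 and 1518, 997, and 1151 and 1095 in Treg, and at 1265, 1322 and 1359.8, and 1482 and 1188 in Tconv. PD1hi lay above every other library. The difference was 0.42 ± 0.14 against Tconv (limma adjusted p = 0.0476) and 0.61 ± 0.14 against Treg (adjusted p = 0.00999). The difference from Treg was kept in all 21 alternatives, from 0.51 to 0.73. The one from Tconv was kept in 2 of 9 fits that left out a population of an experiment, those without Treg of experiment 3 or 5, and its adjusted p rose to 0.149 without Tconv of experiment 3.

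Uqcrb, the subunit that helps bind ubiquinone, stood at 2278, 1971 and 2429 scaled counts in PD1hi and at 1752, 1469 and 1609, and 1781 and 1602 in Tconv, without overlap. The Treg libraries, at 1824 and 2153, 1869.6, and 1746 and 1931, reached into the PD1hi range. The difference from Tconv was 0.42 ± 0.13 (limma adjusted p = 0.0316); it was lost without PD1hi of experiment 3 or 6 and without Tconv of experiment 3, 5 or 6, with adjusted p up to 0.108. The core protein gene Uqcrc1 averaged 4825 ± 1019.6, 4857 ± 217 and 4797 ± 375 in PD1hi, Treg and Tconv. The Rieske iron-sulphur gene Uqcrfs1 averaged 1661 ± 319, 1926 ± 527 and 2203 ± 446. Uqcrfs1 differed by experiment more than by population: PD1hi was below Tconv by -0.33, -0.48 and -0.40 in experiments 3, 5 and 6, while all 5 libraries of experiment 6 lay at or below 1726 scaled counts and every other library above that. Without the block its adjusted p was 0.227.

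Complex IV, cytochrome c oxidase, had the highest median of the complexes in PD1hi against Tconv, 0.18 over 11 nuclear subunits, of which 1 passed the test. That was Cox8a, a small subunit, at 1834, 2071 and 1976 scaled counts in PD1hi, at 1266 and 1717, 1705, and 1055 and 999 in Treg, and at 1229.7, 1523 and 1732, and 992 and 1013 in Tconv. PD1hi lay above all other libraries, but its distance from Tconv varied by experiment, at 0.58, 0.35 and 0.98. The difference was 0.63 ± 0.21 (limma adjusted p = 0.0446). It was lost in 6 of 9 fits that left out a population of an experiment (any of PD1hi, Treg of experiment 3, and Tconv of experiments 3 and 6, the last with an adjusted p of 0.191).

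The other complex IV subunits moved in both directions without passing the test. Cox4i1, the regulatory subunit and the most abundant nuclear member per kilobase, stood at 7161, 6554 and 8517 scaled counts in PD1hi and at 10297, 9899 and 10905, and 9476 and 8621 in Tconv. All PD1hi libraries lay below all Tconv libraries, at -0.43 ± 0.15 (limma adjusted p = 0.0564). Cox5b went the other way, at 928, 877 and 1005 in PD1hi and at 666, 718 and 818, and 601 and 571 in Tconv (0.48 ± 0.17, adjusted p = 0.0555). Cox5a averaged 1673 ± 250.2 in PD1hi, 1656 ± 402 in Treg and 1475 ± 324 in Tconv, and Cox6a1 averaged 2511 ± 513, 1983 ± 34.2 and 2490.3 ± 251. Of the isoform pair Cox6b1 and Cox6b2, the common form averaged 2229 ± 301, 1908 ± 251 and 1841 ± 82.5, while the testis form had 44 reads over the PD1hi libraries, 31 over Treg and 27 over Tconv.

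Complex V, the ATP synthase, had 15 nuclear subunits within the symbol rule, none of which passed the test in PD1hi against Tconv. The lowest adjusted p was that of Atp5j, a stalk subunit chosen for mention after its values were seen (0.32 ± 0.14, limma adjusted p = 0.109). The catalytic head genes Atp5a1 and Atp5b averaged 13739 ± 3344 and 10917 ± 660.4 scaled counts in PD1hi, 15060.2 ± 1697 and 10946 ± 963 in Treg, and 16599.8 ± 868 and 11773 ± 1078 in Tconv. Atp5a1 was at 9895 in PD1hi of experiment 6 and at 15982 and 15339.5 in the other PD1hi libraries. The central shaft gene Atp5c1 averaged 7206 ± 976, 7973 ± 717 and 8664 ± 561, with PD1hi below Tconv in each experiment (-0.27 ± 0.13, adjusted p = 0.164). The 3 genes for the same ring subunit kept 1 order in every population: Atp5g3 at 2941, 2530.3 and 2714 scaled counts, Atp5g1 at 1621, 1331 and 1557, and Atp5g2 at 913, 791 and 892. Per kilobase of exon the order of Atp5g1 and Atp5g2 was the reverse, at 329.9 against 545 in PD1hi. Atp5l was counted at only 44.6 to 193 scaled counts, with the lowest mean among the nuclear subunits in each population. Ndufb4 was next, at means of 157 in PD1hi, 206 in Treg and 214 in Tconv. Reads shared between Atp5l and its low copies Atp5l2 and Atp5l-ps1 make their values uncertain.

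Mitochondrially encoded messenger RNAs included the most abundant messengers among the members. In PD1hi they ran from mt-Cytb at 68618 scaled counts per kilobase, the complex III cytochrome, through mt-Co1 at 57588 and mt-Nd1 at 39291, to mt-Nd4l at 833. The highest nuclear subunit on that scale, Cox4i1, reached 4781 in PD1hi, 4912 in Treg and 6397 in Tconv. None of the 13 passed the test in any comparison, and at an unadjusted p under 0.05 limma counted only mt-Nd4l, in PD1hi and in Treg against Tconv. All 13 had fitted differences above 0 in PD1hi against Tconv, with a median of 0.17. Without the PD1hi library of experiment 6 that median was 0.05, with or without the second Treg library of experiment 3. It was 0.36 without PD1hi of experiment 5, 0.32 without Tconv of experiment 3 and 0.005 without Tconv of experiment 5.

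The 7 complex I messengers showed PD1hi means above Tconv and no test passed. The complex I messenger mt-Nd1 averaged 37601 ± 7551 scaled counts in PD1hi, 29675 ± 2921 in Treg and 32344 ± 5898 in Tconv. For mt-Nd2 the means were 14194 ± 3294, 12212 ± 873 and 12552 ± 2537, for mt-Nd4 19848 ± 7203, 18475 ± 5823 and 15245 ± 3119, and for mt-Nd5 35267 ± 3897, 38650.5 ± 10546 and 31982 ± 5492. The opposite-strand gene mt-Nd6 averaged 3600.2 ± 728, 4358 ± 1341 and 3250.1 ± 758; since the strand setting of the counting is not given in the sources used here, its reads may include those of the strand opposite. The shortest of these messengers had the widest differences: mt-Nd4l averaged 247 ± 64.1, 259 ± 113 and 149 ± 25.1 (0.70 ± 0.31 in PD1hi against Tconv, limma adjusted p = 0.127), and mt-Nd3 averaged 312 ± 150.5, 305 ± 227 and 191 ± 22.7. Since mt-Nd4l overlaps mt-Nd4, and mt-Atp8 overlaps mt-Atp6, their counts are uncertain.

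Of the messengers of the other complexes, mt-Cytb averaged 78499.6 ± 12432 scaled counts in PD1hi, 67171 ± 4135 in Treg and 71244 ± 14554 in Tconv. The catalytic oxidase gene mt-Co1 averaged 88974 ± 18322, 81870.5 ± 4892 and 87034 ± 18453. For mt-Co2 and mt-Co3 the means were 3941 ± 1262 and 7745 ± 1879 in PD1hi, 4120.2 ± 940.1 and 8004 ± 1733 in Treg, and 3268 ± 367 and 7173 ± 1115 in Tconv. The ATP synthase genes mt-Atp6 and mt-Atp8 averaged 7387 ± 2128 and 1404 ± 319.7, 7999.9 ± 2192 and 1292 ± 207, and 6473 ± 1362 and 1288 ± 416. In each of these 6 genes the library values of the 3 populations overlapped.

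The mitochondrial ribosomal RNA mt-Rnr2 stood at 120587, 122879 and 138465 scaled counts in PD1hi and at 108326, 87535 and 77658, and 112293 and 85799 in Tconv, without overlap (0.40 ± 0.16, limma adjusted p = 0.0810). Its Treg libraries, at 111762 and 118057, 93100.0, and 91814 and 126752, overlapped with both. mt-Rnr1 averaged 20706 ± 8599.9 in PD1hi, 17007 ± 2557 in Treg and 15126 ± 1735 in Tconv, the PD1hi library of experiment 6 alone at 30596. Ribosomal RNA was depleted from these libraries, and whether that step bore on the level of either gene was not tested. Transfer RNAs were barely counted: mt-Tf, the only one tested, had 25 reads over the PD1hi libraries, 194 over Treg and 21 over Tconv, mt-Ti had 16, 85 and 11, and mt-Tl2 had 6, 74 and 7. The other 9 (mt-Ta, mt-Tc, mt-Te, mt-Th, mt-Tl1, mt-Tp, mt-Tq, mt-Tr and mt-Ts2) had 1 to 26 reads per population. Of all transfer RNA reads, 385 lay in the second Treg library of experiment 3 and 9 to 57 in each other library.

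**Figure D3:**
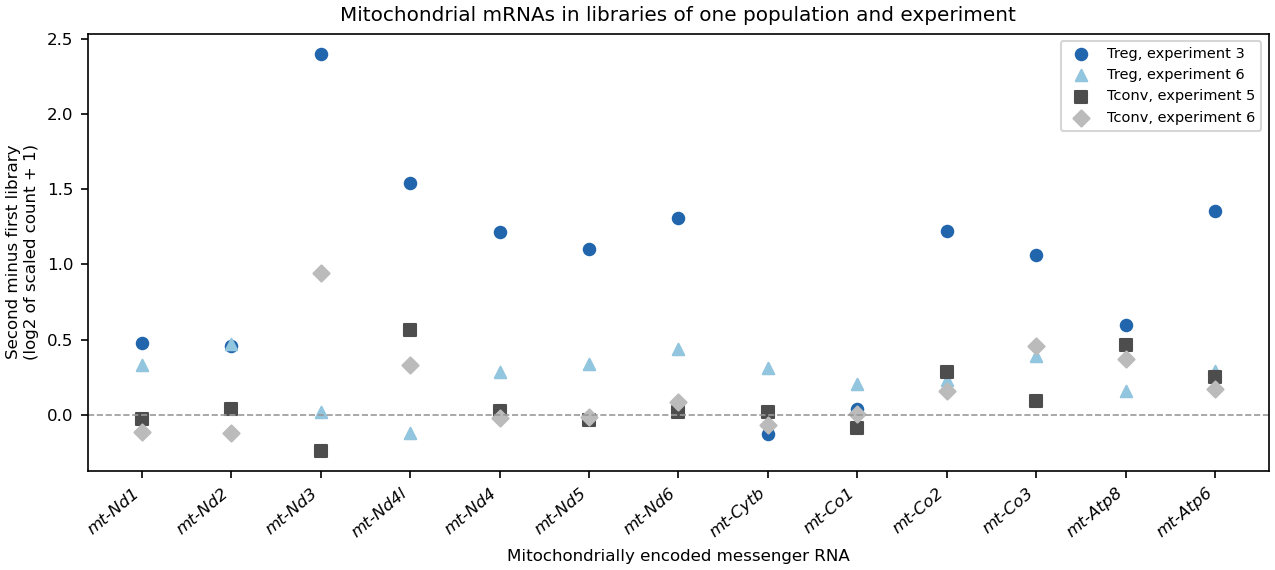
Difference between libraries of the same population and experiment (second minus first, log2 of scaled count + 1, y axis) for the 13 mitochondrial messenger RNAs (x axis), with 1 marker style per pair. The Treg pair of experiment 3 differs most, up to 2.40 in mt-Nd3, while mt-Cytb and mt-Co1 lie near 0 in all 4 pairs except the Treg pair of experiment 6.

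That Treg library was set beside its partner directly. Its mitochondrial messengers exceeded those of the first library in 12 of 13 genes, by a median of 1.10 (log2), with a range from -0.13 to 2.40; the other 3 pairs had medians of 0.29, 0.02 and 0.08. Its nuclear subunits exceeded the partner in 62 of 74 genes, by a median of 0.25 and over a range from -0.81 to 1.67. The PD1hi library of experiment 6, the shallowest, exceeded the mean of the other PD1hi libraries in 13 of 13 mitochondrial messengers, by a median of 0.41, and by 0.05 over the nuclear subunits. Summed, these messengers stood at 320884, 236048 and 340125 in PD1hi of experiments 3, 5 and 6. By sum, experiment 5 lay farthest from the rest. Without the second Treg library of experiment 3 the median of the 13 messengers in Treg against Tconv went from 0.25 to -0.04, and that in PD1hi against Treg from 0.09 to 0.19.

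Nuclear and mitochondrial genes were then compared as sums. The 74 nuclear subunits summed to 174485 ± 6211 scaled counts in PD1hi, 170132 ± 15066 in Treg and 185755 ± 5103 in Tconv. The 13 mitochondrial messengers summed to 299019 ± 55376, 274392 ± 33376 and 272193 ± 53735. Their ratio in single libraries was 1.77, 1.37 and 1.999 in PD1hi, 1.44 and 1.86, 1.64, and 1.40 and 1.66 in Treg, and 1.68, 1.18 and 1.13, and 1.504 and 1.61 in Tconv. The populations overlapped throughout, and the lowest ratios in Tconv and in PD1hi were both from experiment 5. The mean ratio was 1.71 ± 0.315, 1.61 ± 0.069 and 1.46 ± 0.275, and no test was made of it. The log2 difference was 0.23 for PD1hi against Tconv, and ran from 0.07 to 0.38 as each population of an experiment was left out in turn; taken from medians over genes in place of sums it was 0.05. Mitochondrial messengers made up 1.07 to 1.96% of all scaled counts in a library, and nuclear subunits 0.793 to 1.04%.

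**Figure D4:**
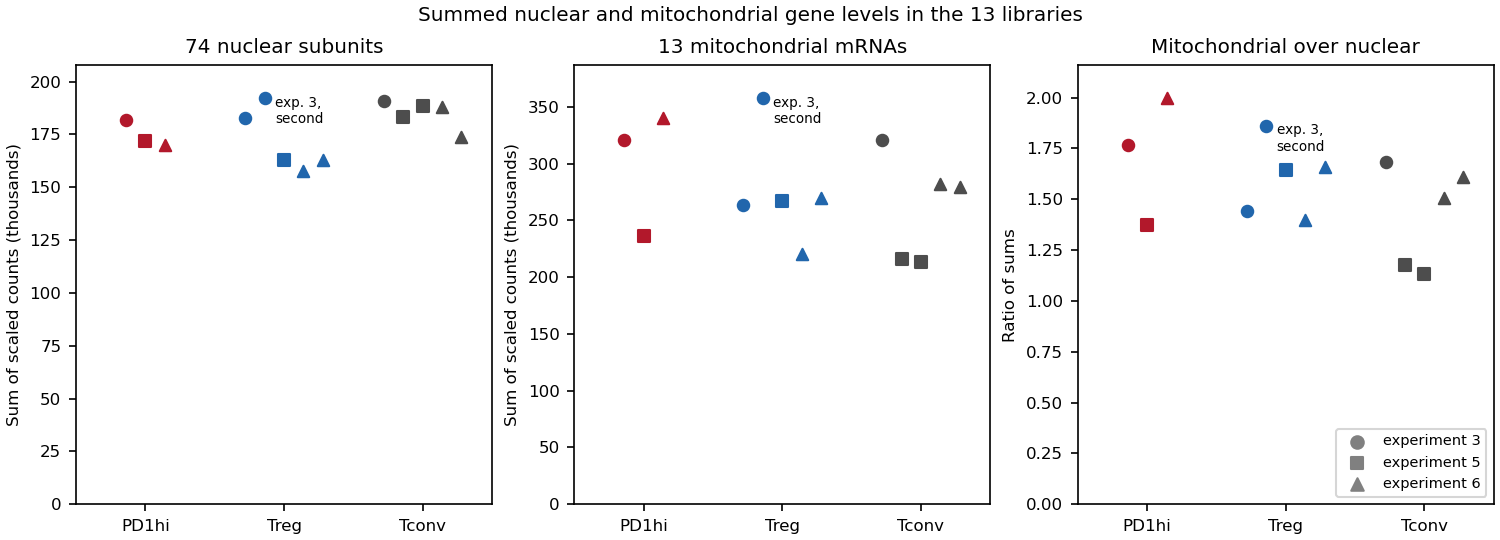
Summed scaled counts (y axes from 0, units as labelled) of the nuclear subunits and of the mitochondrial messenger RNAs, and the ratio of the sums, in each of the 13 libraries; marker shapes give the experiment. The populations overlap in all 3 panels, with ratios between 1.13 and 1.999.

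Members also differed by experiment. Averaged over the populations, the deviation of an experiment from the gene's mean spanned 1.01 (log2) for Atp5l, 0.67 for Atp5s, 0.66 for mt-Nd4l and 0.64 for Uqcrfs1. A description that was added after the values were seen concerned length. Over the 74 nuclear subunits, the length of the longest coding sequence and the difference between PD1hi and Tconv had a Spearman rho of -0.46, and of -0.36, -0.37 and -0.36 within experiments 3, 5 and 6. For PD1hi against Treg rho was -0.52, and -0.10, -0.62 and -0.31 by experiment. The 37 subunits with shorter coding sequences, below a cut of 430 bases, had a median difference from Tconv of 0.06, and the 37 others one of -0.11. Over all 11662 coding genes tested rho was 0.01 and -0.04. The genes share the libraries and their depth, so rho is no test, and libraries of the same population and experiment gave rho between -0.65 (Treg of experiment 3) and 0.39 (Tconv of experiment 6) over the same subunits.

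The second comparison asks how PD1hi cells differ from regulatory cells. Of the 100 members tested, 2 passed: Uqcr10 was higher and Cox7a2l lower in PD1hi, with the values given above. Among all genes 16.5% passed, 8.16% higher and 8.39% lower. The 3 values of each population did not overlap for 12 members, 8 higher and 4 lower, against 30.4% of all genes, and at an unadjusted p under 0.05 limma counted 7 members and 27.7% of all genes. Nuclear subunits had a median of 0.09, with 54 of 74 above 0. Of all 14177 genes tested 7000 were above 0, with a median of -0.01. Under equal library totals these medians were 0.16 for the nuclear subunits and 0.07 for all genes. By complex the medians were 0.09 for I, -0.12 for II, 0.04 for III, 0.16 for IV and 0.08 for V. In complex IV, 10 of 11 subunits were above 0, among them Cox8a (0.51 ± 0.21, adjusted p = 0.137) and Cox5b (0.41 ± 0.17, adjusted p = 0.132). Without the second Treg library of experiment 3 and the PD1hi library of experiment 6 the count was 3 higher and 1 lower of 99, against 1235 and 1372 of 14057 genes.

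The third comparison sets regulatory beside conventional cells. None of the 100 members passed limma's test, where 14.4% of all genes did, 8.73% higher and 5.66% lower. At an unadjusted p under 0.05 limma counted 8 members, 1 higher and 7 lower, and 25.1% of all genes. The lowest adjusted p was that of Cox7a2l, given above. The 3 values of each population did not overlap for 13 members, 4 higher in Treg and 9 lower, against 34.2% of all genes. Among them Ndufa10 (-0.36 ± 0.14, adjusted p = 0.121) and Ndufaf4 (-0.52 ± 0.22, adjusted p = 0.159) were lower in Treg. The nuclear subunits lay below 0 in 55 of 74 cases, with a median of -0.11. Of all 14177 genes tested 6997 lay below 0, with a median of 0.01. Under equal library totals these medians were -0.05 for the nuclear subunits and 0.07 for all genes. By complex the medians in the main fit were -0.11 for I, -0.09 for II, -0.18 for III, -0.03 for IV and -0.15 for V. The 2 libraries set aside bear on this count: without them 7 of 99 members were lower in Treg and none higher, namely Ndufv3, Cox7a2l, Ndufb11, Cox4i1, Atp5h, Cox6a1 and Uqcrh. Calls over all genes rose in the same fit, to 1195 lower and 1621 higher of 14057. The PD1hi library enters this comparison only through the variance that the 3 populations share. Without the Treg library alone, 1 member was lower, Cox4i1. The median of the nuclear subunits was -0.14 in both fits. The comparisons share libraries, so their values are not independent of one another.

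Genes around the respiratory chain, from lists that hold no member, were read beside the subunits. Among all genes 26.1% passed in PD1hi against Tconv, 16.5% in PD1hi against Treg and 14.4% in Treg against Tconv. In the first, 33.3% passed of electron carriers with related genes and of regulators, and 27.3% of antioxidant genes and of inner membrane carriers. The share was 23.8% in the tricarboxylic acid cycle, 18.5% in the assembly factors, lower in the other lists, and 91.7% in cytosolic ribosomal proteins. The lists were not tested as sets. Of 12 electron carriers, supercomplex factors and related genes, 2 rose and 2 fell in PD1hi against Tconv. The list includes Cyc1 of complex III and the complex V genes Usmg5 and 2010107E04Rik, subunits that the symbol rule did not take in. Atpif1, the inhibitor of ATP hydrolysis by complex V, rose from 477 to 1045 scaled counts (1.13 ± 0.17, limma adjusted p = 0.000328), and Treg was also higher than Tconv (0.78, adjusted p = 0.00702). Gpd2, which feeds glycerol phosphate electrons to coenzyme Q, fell in PD1hi (-1.35, adjusted p = 0.000631) and in Treg (-1.58, adjusted p = 0.000389). Dhodh, the pyrimidine enzyme that does the same from dihydroorotate, fell in PD1hi by -0.84 and in Treg by -0.80 (adjusted p = 0.00849 and 0.0190). Its Treg call was kept in 16 of 21 alternatives. None of the 12 passed in PD1hi against Treg.

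In the tricarboxylic acid cycle list, 1 of 21 genes rose and 4 fell in PD1hi against Tconv, with a median of -0.23. Pdk1, a kinase that restrains pyruvate dehydrogenase, fell from 5897 scaled counts in Tconv to 2905 in Treg and 993 in PD1hi (-2.59 ± 0.19 in PD1hi against Tconv, limma adjusted p = 2.15e-06), and passed in all 3 comparisons and in all 21 alternatives of each. Its relative Pdk3 rose in PD1hi against Tconv (1.31, adjusted p = 0.000283), and the mitochondrial isocitrate dehydrogenase Idh2 fell (-1.21, adjusted p = 0.00267). Against Treg, 1 of the 21 fell, and in Treg against Tconv 1 rose and 3 fell. Of 11 antioxidant genes, 1 rose and 2 fell in PD1hi against Tconv: Txnrd2 (0.47, adjusted p = 0.0473), Cat (-0.72, adjusted p = 0.0205) and Gpx1 (-0.47, adjusted p = 0.0319). The calls of Txnrd2, Cat and Gpx1 held in 9, 16 and 13 of 21 alternatives. That of Cat was lost without the 2 libraries set aside and also without Tconv of experiment 3 or 6.

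Of 27 assembly factors outside the symbol rule, 2 rose and 3 fell in PD1hi against Tconv. Cox17, the copper chaperone of complex IV, rose from 979 to 1734 scaled counts (0.82 ± 0.14, limma adjusted p = 0.000764), and was also above Treg (0.53, adjusted p = 0.0178). The call against Treg was kept in 18 of 21 alternatives. Sdhaf1, which serves complex II, rose from 74.3 to 217 (1.77 ± 0.49, limma adjusted p = 0.0183), a call lost without the 2 libraries set aside. The Sdhaf1 call was also lost without PD1hi of experiment 5 and without Tconv of experiment 3 or 6. Lyrm7, which serves complex III, fell in PD1hi (-0.87, adjusted p = 0.0121) and in Treg (-1.18, adjusted p = 0.00333). In Treg against Tconv 3 of the 27 fell, with Cox10, which makes haem A for complex IV, at -0.89 (adjusted p = 0.00203) and Ecsit, a complex I factor, at -0.46 (adjusted p = 0.0481). The Ecsit call was kept in 7 of 21 alternatives, with adjusted p up to 0.141, and was lost without the second Treg library of experiment 3. Of 12 genes for coenzyme Q synthesis, Adck3 alone passed in PD1hi, at 3063 scaled counts against 689 in Tconv (2.15, adjusted p = 5.7e-07) and 916 in Treg (1.74, adjusted p = 2.99e-06). Coq9 passed in Treg against Tconv (-0.44, adjusted p = 0.0410), a call kept in 9 of 21 alternatives and lost without the second Treg library of experiment 3.

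Inner membrane carriers and pores rose in 3 of 11 cases and fell in none, both against Tconv and against Treg. The uncoupling protein gene Ucp2 was at 25902 scaled counts in PD1hi, 16616 in Treg and 18843 in Tconv (0.46 and 0.64 higher in PD1hi, limma adjusted p = 0.0154 against Tconv and 0.00300 against Treg). The aspartate-glutamate carrier Slc25a13 was at 406, 143 and 110.1 (1.77 and 1.42, adjusted p = 0.00195 and 0.0114), and the oxoglutarate carrier Slc25a11 at 3076, 2003 and 2112 (0.53 and 0.63, adjusted p = 0.0395 and 0.0260). Both Slc25a11 calls were lost without the 2 libraries set aside, which left 2 of the 11 higher in each comparison, and each was kept in 14 of 21 alternatives. In Treg against Tconv none of the 11 passed.

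Of 15 regulators of mitochondrial gene expression, 2 rose and 3 fell in PD1hi against Tconv. Hif1a, the hypoxia factor, was at 12360 scaled counts in PD1hi, 5424 in Treg and 1594 in Tconv (2.95 ± 0.15 in PD1hi against Tconv, limma adjusted p = 1.51e-07). Myc fell in PD1hi by -1.98 against Tconv and -1.85 against Treg (adjusted p = 6.26e-06 and 1.35e-05), and Foxo1 by -1.41 and -1.66 (adjusted p = 6.34e-05 and 2.65e-05). The coactivator gene Ppargc1a was low throughout, with 64 reads over the PD1hi libraries, 5 over Treg and 56 over Tconv; its calls in both comparisons with Treg rest on those few reads. Against Treg 3 of the 15 rose and 2 fell, and in Treg against Tconv 1 rose and 2 fell. The coactivator Pprc1 was lower in Treg than in Tconv (-0.66, adjusted p = 0.00889).

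Genes of mitochondrial DNA replication and transcription fell in 2 of 14 cases in PD1hi against Tconv, Peo1 (-0.71, limma adjusted p = 0.00431), the helicase, and Rnaseh1 (-0.55, adjusted p = 0.0201). In Treg against Tconv Top1mt passed at -0.87 (limma adjusted p = 0.0487). The Top1mt call was kept in 7 of 21 alternatives, with limma adjusted p up to 0.186. It was lost in the replicate block and without the second Treg library of experiment 3. The Rnaseh1 call was kept in 17 of 21 alternatives and lost with equal library totals. Of 16 genes of mitochondrial dynamics and turnover, Chchd3, which shapes cristae, fell in PD1hi (-0.52, adjusted p = 0.00886) and in Treg (-0.48, adjusted p = 0.0245), each against Tconv. Of 76 mitochondrial ribosomal proteins, 1 rose and 3 fell in PD1hi against Tconv, with a median of -0.09: Mrps6 rose (1.43, adjusted p = 0.000192), Mrpl30 (-0.95, adjusted p = 0.000702) and Mrps28 (-0.64, adjusted p = 0.0392) fell. Against Treg, Mrps6 and Mrpl52 (0.72, adjusted p = 0.0296) rose and Mrpl30 fell, and in Treg against Tconv only Mrps5 passed (-0.68, adjusted p = 0.00493). The calls of Mrps28, of Mrpl52 and of Mrpl30 against Treg were kept in 11, 14 and 10 of 21 alternatives. Of the cytosolic ribosomal proteins, 77 of 84 fell in PD1hi against Tconv, with a median of -0.97, 15 fell in PD1hi against Treg and 66 in Treg against Tconv, and none rose in any comparison. Rps19 was at 12477 scaled counts in PD1hi, 19495 in Treg and 35795 in Tconv (-1.52 ± 0.14 in PD1hi against Tconv, adjusted p = 1.18e-05).

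**Figure D5:**
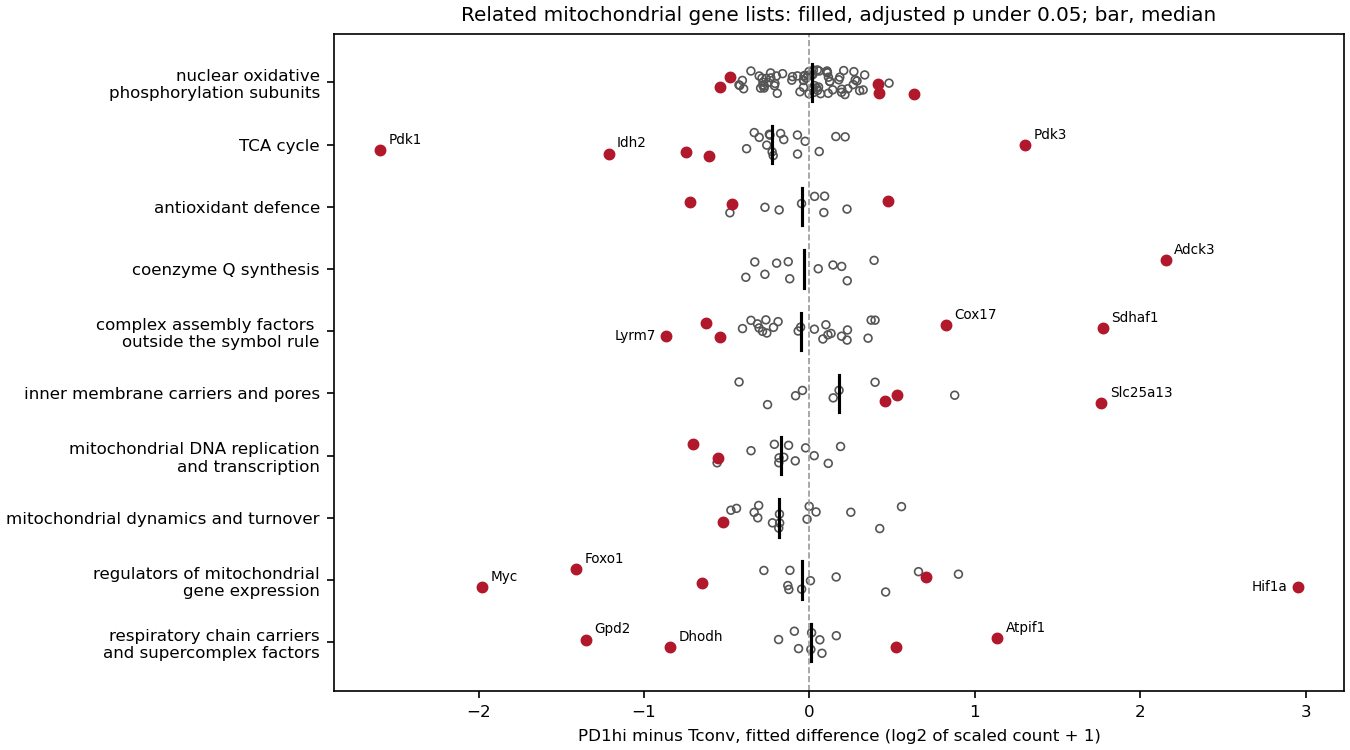
Fitted differences between PD1hi and Tconv (x axis, log2 of scaled count + 1) for the nuclear subunits and 9 related lists (y axis), 1 point per gene, with filled points past the test and bars at list medians. The nuclear subunits lie between -0.54 and 0.63 around a median of 0.02, while single genes of the other lists reach -2.59 (Pdk1) and 2.95 (Hif1a).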

How the data were processed

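RNA of sorted T cells was extracted with Trizol, depleted of ribosomal RNA (100 ng input, RiboMinus low-input kit) and sequenced on the Ion Torrent system, per the labels' protocols. Per the submitters' processing notes, the tools were Picard, HTSeq 0.5.4 and limma, and builds mm9, hg19 and GRCh37 are listed. The aligner, the strand setting and each build's role were not given in the sources used here. Signal values for 18649 genes in 13 libraries were deposited in 1 table. Each deposited value, less 1, was a whole number of reads multiplied by a library constant (tolerance 0.001 reads), and 1 was subtracted to give scaled counts.

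Libraries that share experiment and population were averaged (9 values, 3 per population). Genes with a mean of at least 10 were tested with limma 3.58.1 in R 4.3.3 (trend on mean level, log2(scaled count + 1), 1 variance for all populations, 2-sided, Benjamini-Hochberg over 14177 genes, threshold 0.05); the log scale understates changes of low genes. The procedure was also run on simulated libraries that were independent of one another and carried no experiment effect. That run does not cover the replicate libraries or the shared experiments of these data. Shared experiment titles pair the samples: deviations of values from the same experiment correlated at -0.0700 to 0.298 over 9 pairs, and of different experiments at -0.274 to 0.125 over 18, and the replicate block is an alternative.

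Members and lists were chosen with earlier results of these data known. Values were given for preset subunits of each complex, every mitochondrial gene, up to 4 members per complex and comparison past the test, isoform pairs, and up to 3 genes per related list and comparison; others are named as chosen later. One preset gene is not reported here. Levels per kilobase and coding lengths used GENCODE vM21, promoters RefSeq GRCm38.p6. Summaries used Python 3.11.15. Alternatives changed the added value, the filter, the scaling, the design and the libraries; no count-based tool was run.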

Additional observations from a re-analysis of the deposited data

Results flagged for a closer look

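In 15 of 88 groups of 5 library values, the highest library stood farther from its neighbours than Dixon's 95% limit allows; chance does so in about 1 of 20 groups. In 14 of them it was the second Treg library of experiment 3, so these are not separate events. For mitochondrial messengers its scaled counts were 15134 for mt-Atp6 (next highest Treg library 7257), 1823 for mt-Atp8 (1260.2), 7259 for mt-Co2 (3765), 13509 for mt-Co3 (8144), 954 for mt-Nd3 (179.7), 35130 for mt-Nd4 (16026), 576 for mt-Nd4l (215), 69258 for mt-Nd5 (34949) and 8280.3 for mt-Nd6 (4092). It was also highest for mt-Rnr1, at 24763 against 16016, and for the summed transfer RNAs, at 295 against 34.8. Among nuclear subunits the same library led for Cox6a1 (2075, next 1972), Cox7a2 (1557, next 1193) and Sdhc (1737, next 1437). The remaining case was Cox7a2l in Tconv, at 7594 in experiment 3 and 6643 in the next library.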

How the results depend on the processing

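Over 21 alternatives no call of a named gene changed direction. Paired by experiment in the replicate block, members called were 5 higher and 5 lower in PD1hi against Tconv and 1 lower in Treg against Tconv; it changed no call in PD1hi against Treg. Equal library totals, with or without mitochondrial genes, gave 8 higher and 1 lower in PD1hi against Tconv and 2 higher in PD1hi against Treg. Limma without trend gave 1 higher and 2 lower against Tconv and 2 higher against Treg. Fitting only the 2 groups compared gave 2 lower in PD1hi and 2 lower in Treg, each against Tconv. No filter on low genes gave 2 higher against Treg, and 13 separate libraries gave 2 lower in Treg against Tconv. Without the second Treg library of experiment 3 there were 2 higher in PD1hi against Treg and 1 lower in Treg against Tconv; without that library and PD1hi of experiment 6, an alternative chosen after seeing the data, there were 3 and 7. Leaving out each population of an experiment in turn gave 0 to 3 higher and 1 to 4 lower in PD1hi against Tconv, with 0 higher without PD1hi of experiment 3 or Tconv of experiment 3 or 6 and 1 lower without Tconv of experiment 3. It gave 1 to 2 higher and 1 lower against Treg, and 0 higher and 0 to 1 lower in Treg against Tconv. The log2 ratio of mitochondrial to nuclear sums in PD1hi against Treg was 0.07, -0.05 to 0.22 over those fits, and -0.21 by the median over genes; in Treg against Tconv it was 0.15, and -0.01 to 0.26. Of named members' fits, 2384 stayed on their side of the threshold, 25 passed it and 48 lost it; of related genes' calls, 1169 were kept and 150 lost. Both PD1hi calls of Cox7a2l, that of Uqcr10 against Treg and all calls of Pdk1 were kept in all 21. The 3 values per population limit the precision of every difference.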
